A study of Homo sapiens with 4 samples.

Results

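The 51 genes described here encode the kinases, kinetochore proteins, spindle factors, condensin subunits and cytokinesis proteins of mitosis, with 2 transcription factors that switch them on. They were found by gene symbol in a table of 57820 genes, in which each symbol matched 1 row. RNA was sequenced from 786-0 cells, an established human renal carcinoma line, that carried a short hairpin RNA, non-targeting in 2 libraries (shNT) and directed against GLUD1 in the other 2 (shGLUD1). GLUD1 encodes mitochondrial glutamate dehydrogenase. Both groups were kept in DMEM plus 10% fetal bovine serum, then deprived of amino acids for 12 h, so no fed cells were compared. The labels name neither the hairpin sequences nor whether the lines were clones or pools, nor do they say that the libraries of a group came from separate cultures. The p-values therefore cover library-to-library spread only, and that spread may be technical.

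On entry into mitosis, cyclin B bound to the kinase CDK1 drives chromosome condensation and spindle assembly. Kinetochores, the protein plates built on centromeres, tie chromosomes to spindle microtubules, and a checkpoint on unattached kinetochores restrains the ubiquitin ligase APC/C until every chromosome is attached. The APC/C then has securin and cyclin B destroyed, sister chromatids part and the cell divides. Many genes of this machinery are repressed by the DREAM complex earlier in the cell cycle. They are induced for the G2 phase and mitosis by B-MYB and FOXM1. This regulation runs through short promoter elements called CHR (cell cycle genes homology region) and through CCAAT boxes, which bind the factor NF-Y.

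All 51 genes stood higher in both shGLUD1 libraries than in both shNT libraries, as did 69.9% of the genes tested across the table. Many promoters of the 51 genes held the CHR and CCAAT elements, through which many genes of this machinery are regulated. The promoters of 6 genes are shown as examples, those with the 4 largest and the 2 smallest changes among the genes with a promoter in the RefSeq table (GRCh38.p14). Each stretch holds the 250 bases before the RefSeq transcription start, 5′ to 3′ on the strand of the gene. Capitals mark CHR elements (TTTGAA or TTCGAA, searched on both strands, so TTCAAA is the first read from the other strand) and CCAAT boxes (CCAAT, or ATTGG on the other strand). The large changes were those of NUSAP1 (chr15:41332631-41332880, plus strand), CKAP5 (chr11:46846281-46846530, minus strand), NCAPD2 (chr12:6493852-6494101, plus strand) and PRC1 (chr15:90994536-90994785, minus strand), and the small ones those of ESPL1 (chr12:53268049-53268298, plus strand) and ZWINT (chr10:56361260-56361509, minus strand).
NUSAP1: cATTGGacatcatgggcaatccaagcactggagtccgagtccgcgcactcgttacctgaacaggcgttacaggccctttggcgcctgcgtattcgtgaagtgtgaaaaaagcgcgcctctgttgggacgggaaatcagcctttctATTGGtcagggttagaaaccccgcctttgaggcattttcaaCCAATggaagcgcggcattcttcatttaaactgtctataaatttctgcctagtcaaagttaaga
CKAP5: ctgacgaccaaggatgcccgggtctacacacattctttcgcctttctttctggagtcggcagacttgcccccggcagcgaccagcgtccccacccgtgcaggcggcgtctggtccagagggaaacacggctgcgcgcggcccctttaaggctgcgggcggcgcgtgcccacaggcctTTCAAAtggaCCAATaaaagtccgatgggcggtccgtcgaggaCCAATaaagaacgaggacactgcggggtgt
NCAPD2: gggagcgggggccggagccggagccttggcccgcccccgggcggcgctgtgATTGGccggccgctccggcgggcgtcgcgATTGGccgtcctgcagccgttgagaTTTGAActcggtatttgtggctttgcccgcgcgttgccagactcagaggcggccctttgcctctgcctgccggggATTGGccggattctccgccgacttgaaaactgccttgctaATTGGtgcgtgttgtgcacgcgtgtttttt
PRC1: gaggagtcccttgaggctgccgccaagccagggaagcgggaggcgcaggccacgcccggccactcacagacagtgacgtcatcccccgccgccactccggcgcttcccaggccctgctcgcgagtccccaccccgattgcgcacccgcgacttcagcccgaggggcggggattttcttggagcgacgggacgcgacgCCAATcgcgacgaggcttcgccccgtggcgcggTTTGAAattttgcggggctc
ESPL1: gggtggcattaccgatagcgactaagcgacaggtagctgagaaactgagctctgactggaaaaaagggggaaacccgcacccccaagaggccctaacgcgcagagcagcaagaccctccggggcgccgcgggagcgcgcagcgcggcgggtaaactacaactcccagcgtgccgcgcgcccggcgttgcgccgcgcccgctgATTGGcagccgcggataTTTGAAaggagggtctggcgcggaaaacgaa
ZWINT: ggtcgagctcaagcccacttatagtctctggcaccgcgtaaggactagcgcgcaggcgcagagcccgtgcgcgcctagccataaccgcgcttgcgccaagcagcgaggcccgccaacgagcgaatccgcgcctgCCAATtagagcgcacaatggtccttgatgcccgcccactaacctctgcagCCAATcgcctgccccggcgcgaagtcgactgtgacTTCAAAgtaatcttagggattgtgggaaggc

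The genes of large and of small change carried the same elements. NUSAP1 held its CHR element 14 bases after the start, outside the stretch printed, and CKAP5 held a further one 18 bases after it. In windows of 300 bases, from 250 before to 50 after the start, 42 of the 51 genes had an entry. A CHR element was found in 31 of these 42 promoters (73.8%), against 16.6% of 27305 promoters in the table and 10.8% of 8425 promoters of genes tested here. Its first base lay within 50 bases of the start in 25 of the 42 (59.5%), against 3.19% for the genes tested. At least 1 CCAAT box was present in 30 (71.4%, against 37% for the genes tested), at least 2 in 21 (50%, against 14%), and both elements in 24 (57.1%, against 4.65%). A CHR element was found in 11 of 13 kinetochore and checkpoint promoters, in 4 of 4 cytokinesis promoters and in 3 of 8 promoters of kinases and cyclins. Among 12 mitotic kinesin genes, which move chromosomes and spindle poles, 10 promoters held a CHR element (83.3%). Among 21 genes of replication licensing and forks, which act in the earlier S phase, 2 did (9.52%). A match is a description of these letters and not a bound site.

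**Figure D1:**
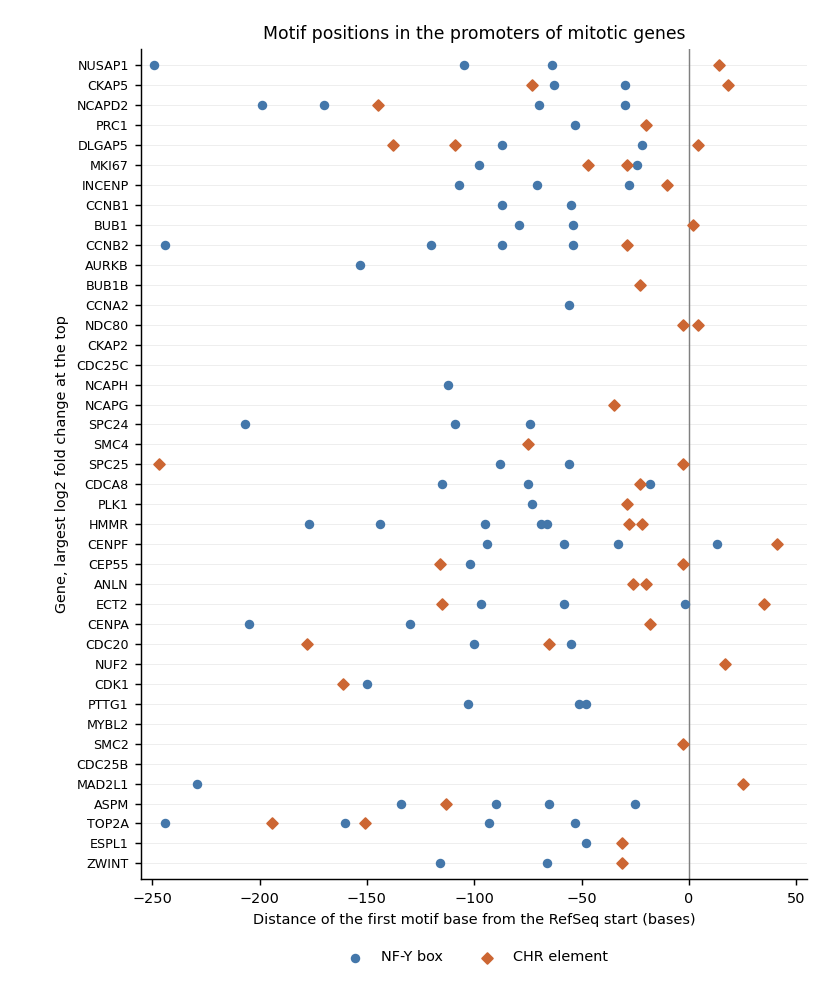
Positions of CHR elements (orange diamonds) and CCAAT boxes, labelled NF-Y boxes (blue circles), in 41 promoters of mitotic genes that were tested for a change. The x axis gives the distance of the first motif base from the RefSeq start in bases, and genes are ordered by log2 fold change with the largest at the top. CHR elements cluster near the start and CCAAT boxes lie mostly upstream of it, from the top of the order (NUSAP1) to the bottom (ZWINT).

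Presence of an element did not go with a larger change. The 31 genes with a CHR element had a median log2 fold change of 1.69 (from 0.64 to 3.12) and the 10 tested genes without one had a median of 2.05 (from 1.10 to 2.78). For CCAAT boxes the medians were 1.80 in 30 genes with a box and 1.87 in 11 without one. These ranges overlap and were not tested.

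The data are TPM (transcript abundance corrected for length, with every library scaled to the same total), one column per library. TPM keep no read totals, so depth is unknown and no counting interval can be given. GLUD1 was at 18.1 and 17.4 TPM in shNT and at 13.5 and 19.8 TPM in shGLUD1, so the second library labelled shGLUD1 was above both controls (-0.11 on the log2 scale, SE 0.19, limma adjusted p = 0.631). After the rescaling described next it was lower in shGLUD1 (-0.84, limma adjusted p = 0.00201). The directions below are drawn from the labels. Of the 12524 genes averaging 1 TPM or more, 7105 (56.7%) were higher in shGLUD1 and 973 (7.77%) lower at a limma adjusted p under 0.05, and the median gene was itself 0.63 log2 units higher. The main counts and the changes of named genes of the set and the further lists are therefore given also after median-ratio rescaling. It divides every library by its typical ratio to the 4-library average and leaves the median gene at -0.01. On that scale 2846 genes (22.7%) stood higher and 3557 (28.4%) lower. Log2 fold changes are of TPM + 1, which understates the change of genes at low levels, and limma borrows the spread of all genes, so a small SE does not rest on the 2 libraries of a group alone. Of the 8 renal carcinoma markers, VIM, CA9, EPAS1, KRT8, VEGFA and PAX8 were above 5 TPM in each library (PAX8 between 5.18 and 8.75 TPM). KRT18 was low, at 1.87 and 1.54 TPM in shNT and at 0.66 and 0.82 TPM in shGLUD1, and fell (-0.64, limma adjusted p = 0.0425), and PAX2 was listed at 0 in 3 libraries. The 8 summed to 1077 and 1036 TPM in shNT and to 3107 and 3993 TPM in shGLUD1, mostly VIM. Summed leukocyte markers reached at most 1.36 TPM and summed endothelial markers at most 0.41 TPM. The 6 fibroblast markers summed to 29.6 and 28.4 TPM in shNT and to 62.7 and 64.5 TPM in shGLUD1, mostly COL1A2. LUM lay between 5.70 and 9.42 TPM, COL1A1 between 1.63 and 5.19 TPM and PDGFRA between 1.58 and 2.12 TPM. COL3A1 and DCN were under 1 TPM in each library. The part of these markers in the result was not tested.

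Together the 51 transcripts made up 0.0884% and 0.0861% of the summed TPM in shNT and 0.255% and 0.282% of it in shGLUD1. Their median stood at 4.18 and 4.79 TPM in shNT and at 18.4 and 22.9 TPM in shGLUD1. Of the 51 genes, 50 passed the filter on low values, and 50 of 50 were called higher and none lower (background 56.7% and 7.77%). Of these, 4 genes, CENPF, CKAP2, ASPM and MKI67, were under 1 TPM on average in shNT and passed only through shGLUD1. Without any filter, all 51 could be tested and 46 were called higher and none lower, against 24.1% and 3.26% of 24169 genes. At least 2-fold increases were called for 43 of 50 (background 29.5%). After rescaling 42 of 50 were higher and none lower (background 22.7% and 28.4%), and 27 were at least 2-fold higher (background 6.42%). On neither scale did limma place a gene of the set lower at an unadjusted p under 0.05. In bulk RNA, more cells in mitosis and more of each transcript per cell cannot be told apart.

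**Figure D2:**
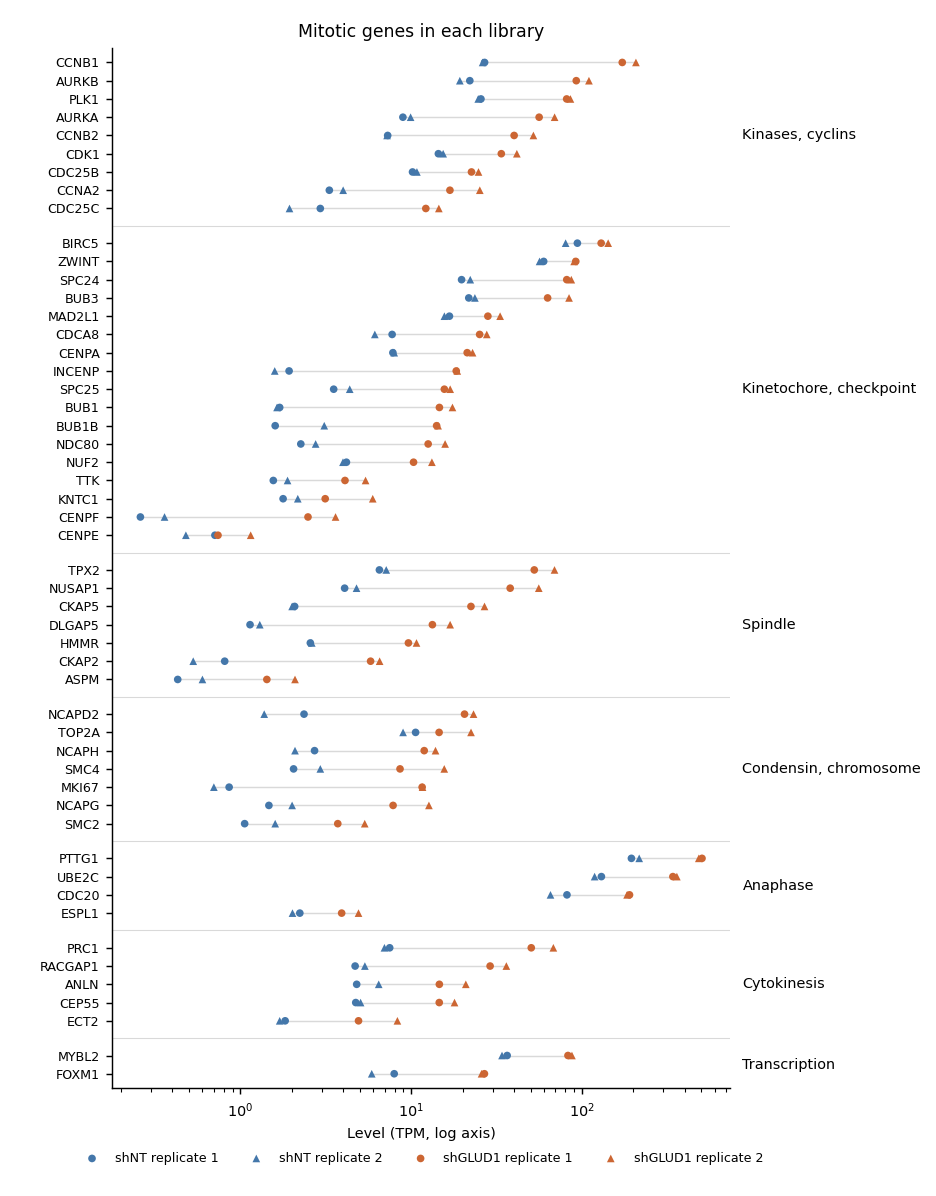
Level of each of the 51 genes in TPM on a log axis, by role, with shNT libraries in blue, shGLUD1 libraries in orange, circles for replicate 1 and triangles for replicate 2. In every row both orange points lie to the right of both blue points, narrowly for CENPE and widely for MKI67.

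The size of the change differed widely among the genes. Ratios of mean TPM ran from 1.56 (BIRC5) to 14.9 (MKI67), with a median of 3.97 over the 50 tested, and 6 genes were at least 10-fold higher. Log2 fold changes of TPM + 1 ran from 0.64 to 3.12 with a median of 1.80, and rescaled values from -0.13 to 2.42 with a median of 1.11. Of the 20 largest changes among all genes tested, 9 belonged to these 51, a description only, since the genes were listed with earlier results of these data known. The second shGLUD1 library was above the first in 47 of the 51 genes (92.2%), as it was in 73.7% of all genes tested. The 2 shNT libraries showed no such lean, with the second above the first in 25 genes.

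**Figure D3:**
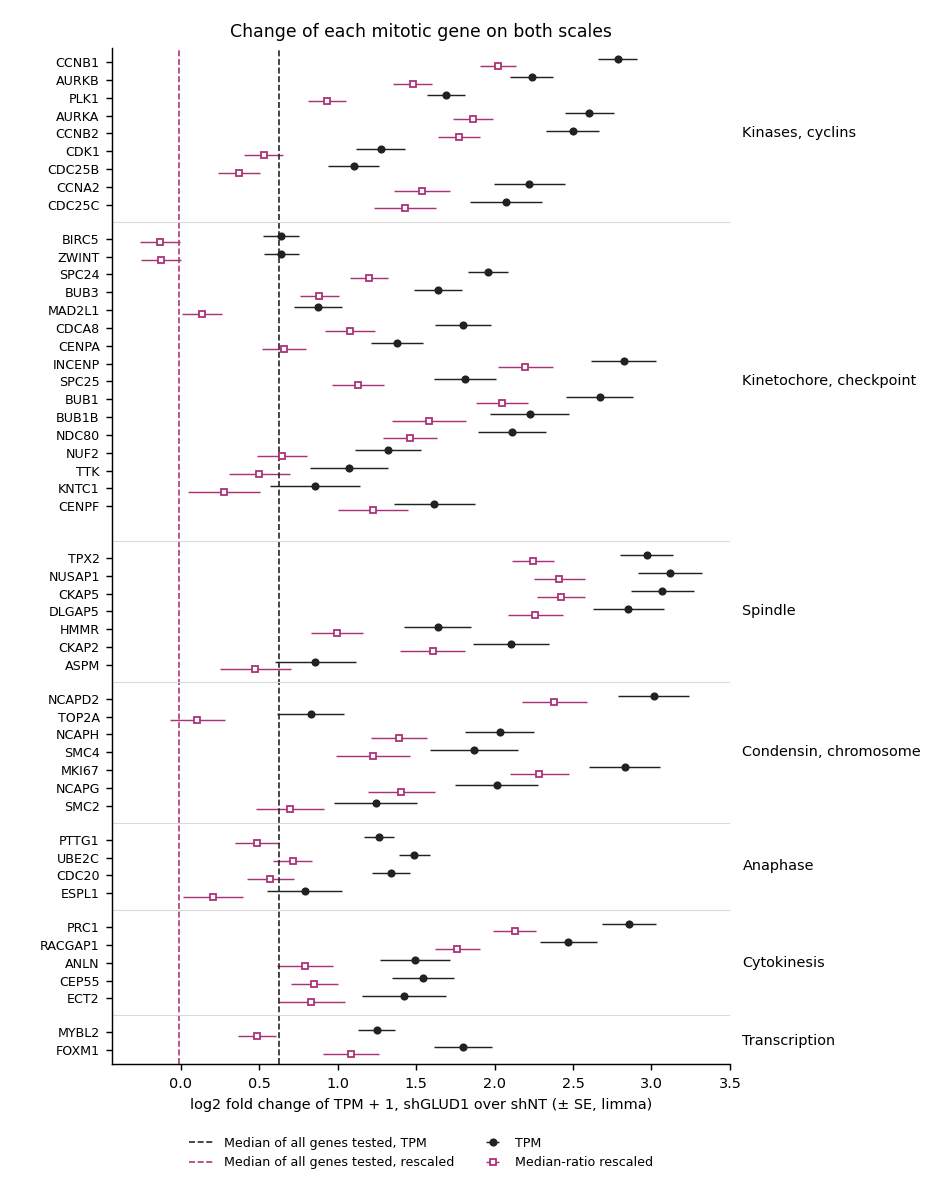
Log2 fold change of TPM + 1 in shGLUD1 over shNT for the 50 genes tested, by role, with SE bars from limma, on TPM (black circles) and after median-ratio rescaling (open purple squares). Dashed lines mark the median of all genes tested on each scale (0.63 and -0.01). Spindle genes reach furthest to the right, and BIRC5, ZWINT, TOP2A and MAD2L1 sit close to the line of the median gene.

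All 9 kinases, cyclins and CDC25 phosphatases rose (background 56.7%), and all 9 were also higher after rescaling (background 22.7%). Their median log2 fold change was 2.22 on TPM and 1.48 rescaled. CCNB1 (ENSG00000134057, GRCh38 chromosome 5, 69167010 to 69178245), the main mitotic cyclin, was at 26.9 and 26.2 TPM in shNT and at 172 and 207 TPM in shGLUD1. Both shGLUD1 libraries were far above both controls, at 7.14 times the mean TPM (log2 fold change 2.78, SE 0.12, limma adjusted p = 1.7e-07, rescaled 2.02). AURKA, the kinase of spindle poles, was at 8.95 and 9.93 TPM in shNT and at 56.2 and 69.2 TPM in shGLUD1 (2.60, rescaled 1.86).

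CDK1, the catalytic partner of these cyclins, changed less than the cyclins did. It was at 14.4 and 15.4 TPM in shNT and at 33.7 and 41.6 TPM in shGLUD1 (1.27, SE 0.16, limma adjusted p = 6.89e-05, rescaled 0.53). The ratio of CCNB1 to CDK1, both per length, was 1.86 and 1.70 in shNT and 5.11 and 4.98 in shGLUD1. For CCNB2, the second mitotic B-type cyclin, the ratio to CDK1 was 0.505 and 0.469 in shNT and 1.19 and 1.25 in shGLUD1. CCNA2, the cyclin of S phase and early mitosis, was the lowest of the 4 in each library, and its ratio to CDK1 was 0.23 and 0.26 in shNT and 0.50 and 0.607 in shGLUD1. With 2 libraries against 2, an exact two-sided permutation test cannot go below p = 0.333, so ratios between genes are given as descriptions. The smallest change of the role belonged to CDC25B, a phosphatase that starts CDK1 activation. It was at 10.2 and 10.8 TPM in shNT and at 22.6 and 24.8 TPM in shGLUD1 (1.10, rescaled 0.37 with limma adjusted p = 0.0447). Its rescaled call was lost without shNT replicate 1 or 2 (0.34 and 0.40) and without shGLUD1 replicate 1 or 2 (0.33 and 0.41). AURKB, the kinase of the chromosomal passenger complex, PLK1, which acts on centrosomes and kinetochores, and CDC25C, the late CDK1 phosphatase, lay between, at 2.24, 1.69 and 2.07. Rescaled, they were at 1.48, 0.93 and 1.43.

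Of the 17 kinetochore and checkpoint genes, 16 were tested, 16 rose on TPM (background 56.7%) and 11 were higher after rescaling (background 22.7%). This role held both some of the largest and the smallest changes. INCENP (ENSG00000149503, GRCh38 chromosome 11, 62123973 to 62153163), the scaffold of the chromosomal passenger complex, was at 1.93 and 1.59 TPM in shNT and at 18.4 and 18.6 TPM in shGLUD1. That is 10.5 times the mean TPM, with shGLUD1 replicates nearly equal (log2 fold change 2.82, SE 0.21, limma adjusted p = 4.09e-06, rescaled 2.19). BUB1, a checkpoint kinase that marks kinetochores, was at 1.70 and 1.64 TPM in shNT and at 14.6 and 17.5 TPM in shGLUD1 (2.67, rescaled 2.05).

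At the other end, BIRC5 and ZWINT moved by about as much as the median gene (0.63). BIRC5 (survivin), another passenger subunit, was at 94.1 and 80.3 TPM in shNT and at 130 and 142 TPM in shGLUD1 (0.64, SE 0.12, limma adjusted p = 0.000792). ZWINT, which links the outer kinetochore to the RZZ complex, was at 59.7 and 56.5 TPM in shNT and at 92.0 and 90.0 TPM in shGLUD1 (0.64). Rescaled, both were just below 0 (-0.13 for each) and neither passed. MAD2L1, the checkpoint protein that captures CDC20, was at 16.8 and 15.7 TPM in shNT and at 28.1 and 33.2 TPM in shGLUD1 (0.88, rescaled 0.13). KNTC1, a subunit of RZZ, was at 1.78 and 2.17 TPM in shNT and at 3.14 and 5.96 TPM in shGLUD1 (0.85, rescaled 0.27). TTK, the checkpoint kinase MPS1, was at 1.56 and 1.89 TPM in shNT and at 4.10 and 5.41 TPM in shGLUD1 (1.07, rescaled 0.50). These 3 rose on TPM but did not pass rescaled (limma adjusted p = 0.404, 0.343 and 0.0595). The call of KNTC1 on TPM was lost without shNT replicate 1 (0.76, limma adjusted p = 0.108) or shGLUD1 replicate 2 (0.48, 0.123). CENPE, a kinetochore motor, had a mean of 0.77 TPM over the 4 libraries and was not tested with the filter. It was at 0.71 and 0.48 TPM in shNT and at 0.74 and 1.15 TPM in shGLUD1, and without the filter it did not pass (0.28, limma adjusted p = 0.375).

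Subunits of one assembly did not move by one factor. In the chromosomal passenger complex, INCENP was the least and BIRC5 the most abundant transcript per length in each library. BIRC5 exceeded INCENP 48.7 and 50.5 times in shNT and 7.05 and 7.64 times in shGLUD1. AURKB and CDCA8, the borealin subunit (1.80, rescaled 1.08), lay between them. In the mitotic checkpoint complex, formed by MAD2L1, BUB1B, BUB3 and CDC20, the lowest subunit was BUB1B. It was at 1.60 and 3.10 TPM in shNT and at 14.1 and 14.4 TPM in shGLUD1 (2.22, rescaled 1.58). CDC20 exceeded it 51.1 and 21.1 times in shNT and 13.5 and 12.8 times in shGLUD1. BUB3, the partner of both BUB kinases, changed by 1.64 (rescaled 0.88).

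The Ndc80 complex, which grips microtubule ends, differed less in composition between the groups. SPC24 was the most abundant of its 4 transcripts in each library, and the ratio of SPC24 to its partner SPC25 was 5.61 and 5.08 in shNT and 5.21 and 5.12 in shGLUD1. The ratio within the other pair differed between the groups, with NDC80 at 0.541 and 0.692 times NUF2 in shNT and at 1.22 and 1.20 times NUF2 in shGLUD1. Their log2 fold changes were 2.11 for NDC80, 1.32 for NUF2, 1.96 for SPC24 and 1.81 for SPC25 (rescaled 1.46, 0.64, 1.20 and 1.13). CENPA, the centromeric histone, rose by 1.38 (rescaled 0.66). CENPF, a large outer kinetochore protein, was at 0.26 and 0.36 TPM in shNT and at 2.49 and 3.61 TPM in shGLUD1. That is 9.84 times the mean TPM (1.61, rescaled 1.225).

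**Figure D4:**
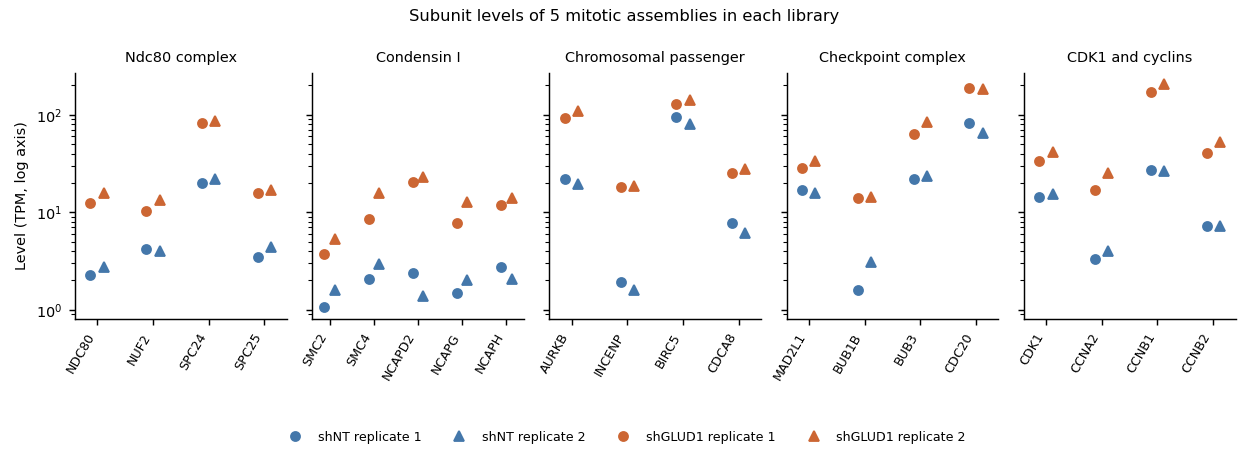
Level in TPM, on a log axis, of the subunits of 5 assemblies in each library, with shNT in blue, shGLUD1 in orange, circles for replicate 1 and triangles for replicate 2. The distance between blue and orange is similar for SPC24 and SPC25, whereas it is wide for INCENP and narrow for BIRC5 in the passenger complex.

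The spindle genes had the highest median log2 fold change of the 7 roles (2.85 on TPM, 2.24 rescaled). All 7 rose (background 56.7%) and 6 were higher after rescaling (background 22.7%). NUSAP1 (ENSG00000137804, GRCh38 chromosome 15, 41332694 to 41381050), which bundles spindle microtubules near chromosomes, was at 4.08 and 4.79 TPM in shNT and at 38.0 and 55.9 TPM in shGLUD1 (a log2 fold change of 3.12, SE 0.20, rescaled 2.41). CKAP5, a microtubule polymerase, was at 2.08 and 2.01 TPM in shNT and at 22.4 and 26.9 TPM in shGLUD1 (3.07, SE 0.20, rescaled 2.42).

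In both genes the 2 groups were separated by at least 7.93-fold between the nearest libraries. TPX2, which activates AURKA on the spindle, DLGAP5, a spindle-stabilizing protein, and CKAP2, a microtubule nucleator, rose by 2.97, 2.85 and 2.10 (rescaled 2.24, 2.26 and 1.60). The smallest changes were those of HMMR, a spindle-pole protein, at 2.57 and 2.62 TPM in shNT and at 9.64 and 10.8 TPM in shGLUD1 (1.64, rescaled 1.00), and of ASPM. ASPM, which focuses spindle poles, was at 0.43 and 0.60 TPM in shNT and at 1.43 and 2.09 TPM in shGLUD1. On TPM + 1 it rose by 0.86 (limma adjusted p = 0.0133), and its rescaled value of 0.47 did not pass (0.107), although its mean TPM was 3.42 times higher, with both levels near the added 1 TPM. Without shNT replicate 1 its call on TPM was lost (0.78, limma adjusted p = 0.0739).

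Condensin I, the ring that compacts mitotic chromosomes, and 2 other chromosome proteins formed the next role. All 7 of its genes rose (background 56.7%) and 6 were higher after rescaling (background 22.7%). NCAPD2 (GRCh38 chromosome 12, 6493356 to 6531955), a regulatory subunit of condensin I, was at 2.36 and 1.38 TPM in shNT and at 20.5 and 23.2 TPM in shGLUD1 (a log2 fold change of 3.01, SE 0.23, rescaled 2.38). SMC2, a core ATPase subunit, was at 1.06 and 1.60 TPM in shNT and at 3.72 and 5.35 TPM in shGLUD1 (1.24, rescaled 0.70). The other core subunit, SMC4, and the regulatory subunits NCAPG and NCAPH rose by 1.87, 2.01 and 2.03. Within a library the 5 subunits spanned 2.57-fold and 2.13-fold in shNT and 5.52-fold and 4.33-fold in shGLUD1.

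A pair of genes often read as signs of proliferation stood far apart within this role. MKI67 (Ki-67, which coats mitotic chromosomes) was at 0.86 and 0.70 TPM in shNT and at 11.6 and 11.7 TPM in shGLUD1, the highest ratio of mean TPM among the mitotic genes tested, 14.9 (log2 fold change 2.83, SE 0.23, limma adjusted p = 6.84e-06, rescaled 2.29). TOP2A, the topoisomerase that disentangles sister chromatids, was at 10.6 and 8.97 TPM in shNT and at 14.6 and 22.4 TPM in shGLUD1 (0.83, SE 0.21, limma adjusted p = 0.00609). Its 2 shGLUD1 libraries were farther apart than the lower of them was from the controls, and without shGLUD1 replicate 2 its call on TPM was lost (0.53, limma adjusted p = 0.0575). Its rescaled value of 0.10 did not pass (limma adjusted p = 0.634).

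The 4 genes of the anaphase switch rose on TPM (background 56.7%) and 3 of them after rescaling (background 22.7%). Their median was 1.30 on TPM and 0.53 rescaled. PTTG1 (securin, the inhibitor of separase) was the most abundant of the 51 transcripts in each library, at 195 and 216 TPM in shNT and at 505 and 483 TPM in shGLUD1 (1.26, rescaled 0.49). UBE2C, the ubiquitin-conjugating enzyme of the APC/C, was at 130 and 119 TPM in shNT and at 341 and 360 TPM in shGLUD1 (1.49, rescaled 0.71). CDC20, the APC/C activator that the checkpoint holds back, was at 81.7 and 65.5 TPM in shNT and at 190 and 184 TPM in shGLUD1 (1.34, rescaled 0.57).

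These abundant transcripts rose 2.40-fold to 2.82-fold in mean TPM. ESPL1, separase itself, was at 2.23 and 2.02 TPM in shNT and at 3.92 and 4.92 TPM in shGLUD1 (0.79, limma adjusted p = 0.0138), and its rescaled value of 0.20 did not pass (0.387). ESPL1 lost its call on TPM without either shNT library (0.84 and 0.74, limma adjusted p = 0.0749 and 0.114) or without shGLUD1 replicate 2 (0.66, 0.0512).

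All 5 cytokinesis genes rose (background 56.7%) and all 5 were higher after rescaling (background 22.7%). PRC1, which bundles the central spindle, was at 7.49 and 6.98 TPM in shNT and at 50.5 and 68.0 TPM in shGLUD1 (a log2 fold change of 2.86, SE 0.17, rescaled 2.13). RACGAP1, the GTPase-activating subunit of centralspindlin, was at 4.70 and 5.36 TPM in shNT and at 29 and 36.1 TPM in shGLUD1 (2.47, rescaled 1.76). The other 3 genes changed less, and their groups did not overlap either.

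ECT2, which activates RhoA at the cleavage furrow, was at 1.83 and 1.70 TPM in shNT and at 4.92 and 8.31 TPM in shGLUD1 (1.43, rescaled 0.83). ANLN, the furrow scaffold anillin, was at 4.80 and 6.46 TPM in shNT and at 14.6 and 20.9 TPM in shGLUD1 (1.49, rescaled 0.79). CEP55, which recruits the abscission machinery to the midbody, was at 4.74 and 5.06 TPM in shNT and at 14.6 and 17.95 TPM in shGLUD1 (1.54, rescaled 0.85). The shGLUD1 replicates of ECT2 differed more from each other than those of CEP55, with no overlap with shNT in either.

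Both transcription factors rose as well (background 56.7%). FOXM1 was at 7.96 and 5.88 TPM in shNT and at 26.9 and 25.8 TPM in shGLUD1 (1.80, SE 0.18, limma adjusted p = 2.63e-05, rescaled 1.08). MYBL2 (B-MYB) was at 36.5 and 34.1 TPM in shNT and at 82.8 and 87.4 TPM in shGLUD1 (1.25, SE 0.12, rescaled 0.48).

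Other genes of the pathway, from 7 further lists with 122 genes, moved in the same direction less uniformly. On TPM 83 of the 116 tested rose and 1 fell, while rescaled values were higher for 50 and lower for 21 (medians 1.01 and 0.39). These are 71.6% higher on TPM, against 56.7% of all genes tested, and 43.1% higher rescaled, against 22.7%. Of the 116, 19 averaged under 1 TPM in shNT and passed the filter only through shGLUD1, SMC1A, WEE1, RBL2 and LIN9 among those named below. Without the filter, 71 of 121 were called higher and 1 lower. Of 31 further kinetochore genes, 22 rose (71%, background 56.7%) and 1 fell. Rescaled, 9 were higher, a share of 29% that is near the 22.7% of all genes, and 5 lower (16.1%, background 28.4%). HJURP, the chaperone that loads CENPA, rose most (2.56, rescaled 1.88). PMF1, a subunit of the Mis12 complex, fell on TPM (-0.35, limma adjusted p = 0.0197, rescaled -1.12). CENPN had the next smallest change (0.01, rescaled -0.75). The direction of PMF1 changed when trends with transcript length and GC content were removed (0.30, not called). Of 29 spindle and centrosome genes, 23 rose (79.3%, background 56.7%) and none fell, led by TACC3, a partner of CKAP5 (2.41, rescaled 1.67). Rescaled, 15 were higher (51.7%, background 22.7%) and 5 lower (17.2%, background 28.4%). The smallest changes were those of HAUS1 (0.07, rescaled -0.69) and TROAP (0.20, rescaled -0.56). Of 16 further mitotic kinases and phosphatase regulators, 15 rose (93.8%, background 56.7%) and none fell. Rescaled, 12 were higher (75%, background 22.7%) and 1 lower (6.25%, background 28.4%). The largest changes were those of WEE1, which restrains CDK1 (2.19, rescaled 1.68), and NEK2, a centrosomal kinase (2.08, rescaled 1.52). The smallest were those of ENSA (0.17, rescaled -0.61) and ARPP19 (0.48, rescaled -0.27).

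The APC/C list held its subunits with the coactivator FZR1, the ubiquitin-conjugating enzyme UBE2S and the inhibitor FBXO5. Of these 17 genes, 8 rose on TPM, a share of 47.1% that is below the 56.7% of all genes, and none fell. Rescaled, 4 were higher, a share of 23.5% that is near the 22.7% of all genes, and 8 lower (47.1%, background 28.4%). The medians of 0.42 on TPM and -0.35 rescaled were the lowest of the 7 lists and below those of all genes tested. The largest changes on TPM were those of FBXO5 (1.74, rescaled 1.13) and the subunit CDC16 (1.67, rescaled 0.96). The smallest were those of the subunits ANAPC10 (-0.33, rescaled -1.06) and ANAPC1 (-0.30, rescaled -1.04), neither called on TPM and both lower rescaled. Of 12 tested cohesin genes, 7 rose and none fell on TPM, a share of 58.3% that is close to the 56.7% of all genes. Rescaled, 6 were higher (50%, background 22.7%) and none lower. The largest changes on TPM were those of the ring subunits SMC1A (2.22, rescaled 1.67) and RAD21 (2.16, rescaled 1.46). The smallest were those of STAG1 (0.15, rescaled -0.44) and ESCO2 (0.28, rescaled -0.15), neither called on either scale. Of 3 condensin II subunits, 2 rose (66.7%, background 56.7%) and none fell, NCAPG2 (2.25, rescaled 1.59) and NCAPD3 (1.20, rescaled 0.65). Rescaled, 2 were higher (66.7%, background 22.7%) and 1 lower (33.3%, background 28.4%). The lower one was NCAPH2 (0.08 on TPM, rescaled -0.69). Of 8 tested genes of DREAM and its MuvB core, 6 rose (75%, background 56.7%) and none fell, and rescaled 2 were higher, a share of 25% that is close to the 22.7% of all genes, and 1 lower. The largest changes on TPM were those of RBBP4 (1.84, rescaled 1.11) and RBL2 (1.56, rescaled 1.04). The smallest were those of LIN9 (0.14, rescaled -0.25) and LIN37 (0.28, rescaled -0.47), neither called on TPM.

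A pair of neighbouring gene groups were set beside the mitotic genes. Of 11 tested mitotic kinesin genes, 10 rose and none fell (7 higher and none lower rescaled), with a median log2 fold change of 1.71 on TPM and 1.23 rescaled. Of 24 replication licensing and fork genes, 19 rose and none fell (15 higher and 1 lower rescaled), with a median of 1.21 and 0.52. Their highest value on TPM was 1.83 (PCNA, the sliding clamp of the replication fork, rescaled 1.08). KIF11, KIF18A and KIF18B of the kinesins averaged under 1 TPM in shNT (0.525, 0.765 and 0.635) and passed the filter only through shGLUD1. So did MCM10, CDC7 and GINS1 of the replication genes (0.485, 0.52 and 0.955), and all of these were called higher on TPM. Counts without the filter are not given for these lists. Over all genes tested, 56.7% rose and 7.77% fell, and rescaled 22.7% were higher and 28.4% lower. The medians of the 50 mitotic genes were 1.80 and 1.11. These differences between groups of genes were not tested.

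**Figure D5:**
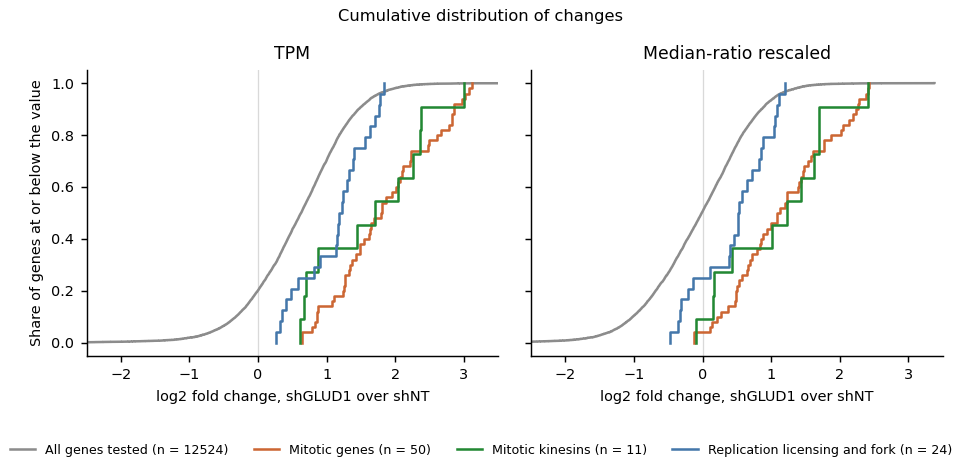
Cumulative share of genes (y axis) by log2 fold change in shGLUD1 over shNT (x axis) on TPM (left) and after median-ratio rescaling (right), for all genes tested (grey), the mitotic genes (orange), mitotic kinesins (green) and replication licensing and fork genes (blue). The orange and green curves run close together to the right of the grey one, and on TPM the blue curve ends at 1.83.

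Transcript length moved with the changes across the whole table, with a Spearman rho of 0.39 between log2 fold change and length over the genes tested that have a length (97.9%), all from the same 4 libraries. The mitotic genes had a median transcript length of 3166 nt, against 2905 nt for genes tested. Among the 50 the rho of log2 TPM ratio with length was 0.183. That ratio has no added 1 TPM, so this rho and the 0.39 rest on unlike measures and are not compared. With trends in length and GC content removed, 50 of 50 were called higher and none lower (background 71.4% and 3.55%), with a median of 1.96 against 0.82 for all genes. On that scale 44 of the 50 lay above the median of all genes, against 50 of 50 on plain TPM. BIRC5, MAD2L1, KNTC1, TOP2A, ESPL1 and ASPM lay below it, at 0.71 to 0.79. Short and abundant UBE2C and long and scarce MKI67 then stood at 2.06 and 2.60. Ordered by mean TPM over the 4 libraries, the 17 scarcest genes had a median TPM ratio of 4.86, the next 17 one of 4.13 and the 16 most abundant one of 3.28. Median log2 fold changes of TPM + 1 in the same sets were 1.64, 1.81 and 1.665, without a steady decline. The ratios of each set ranged widely, from 1.56 to 8.90 among the most abundant.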

How the data were processed

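RNA-seq libraries of 786-0 cells (shNT and shGLUD1, 2 each) were represented by 1 table of 57820 genes. Its values are TPM deposited by the authors, to 2 decimals, and each column sums to 1000000. Per the submitters' processing notes, the tool was Bowtie 0.12.2, with hg38 and mm8 listed as builds. Which program computed the TPM, and on which annotation, was not given in the sources used here. Read depth cannot be recovered from TPM.

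Groups were taken from the labels. The 12524 genes averaging 1 TPM or more were tested on log2(TPM + 1) with limma 3.58.1 (R 4.3.3) with a variance trend, two-sided, and called at a Benjamini-Hochberg adjusted p under 0.05. Median-ratio rescaling used genes above 0 in all 4 libraries. Coordinates and transcript lengths are from GENCODE 29 (GRCh38), to which 52338 gene identifiers matched, and promoters from RefSeq (GRCh38.p14). On simulated data the fit recovered 58 to 70 of 100 2-fold changes and 100 of 100 4-fold changes, with 6 to 8 false calls among 12524 genes. The simulation had a common SD for all genes, few changed genes and no shift of the median gene. These data differ in that, so it does not measure the error of the calls here. The genes and lists were chosen with earlier results of these data known. Values in each library are given for the 2 largest and the 2 smallest changes of each role, all genes of a role of 4 or 5, both of a role of 2, and genes that did not pass. In each further list the 2 genes of largest and the 2 of smallest change may be named. Alternatives changed the pseudocount (0.1 TPM), the filter (none, or a mean of at least 5 TPM), the scaling, the variance model, the replicate block, length and GC trends, the gene types, and each library in turn. Of the further genes listed, RBL1 stood under 2 identifiers and was left out, and PECAM1 was not matched by symbol.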

Additional observations from a re-analysis of the deposited data

How the results depend on the processing

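Between 42 and 50 of the tested mitotic genes were called higher under the alternatives that kept all 4 libraries, and limma called none lower. The count was 46 of 51 with no filter (background 24.1%), where ASPM, ESPL1, KNTC1 and TOP2A lost their calls. It was 42 of 42 with a mean of at least 5 TPM, against 4676 of 7833 genes. With either rescaling (background 22.7%) or quantile normalization (background 23.5%) it was 42 of 50. With the smaller pseudocount, no variance trend and the replicate block, 50 of 50 stood against 7080, 6860 and 7395 of 12524 genes. With protein-coding genes only, 50 of 50 stood against 6875 of 10829. The median log2 fold change of the mitotic genes on TPM was 1.70 and 1.685 without shNT replicate 1 or 2. It was 1.85 and 1.68 without shGLUD1 replicate 1 or 2. The median of all genes was then 0.62, 0.63, 0.72 and 0.54, in the same order. After rescaling, CDC25B lost its call whichever library was left out. CDC20, PTTG1, SMC2, NUF2, ANLN, ECT2 and MYBL2 lost theirs in some of these fits. The median log2 fold change of 1.80 became 1.11 after rescaling and 1.19 with quantile normalization, both of which also centre all genes near 0, and the rescaled median was 1.08, 1.10, 1.07 and 1.12 without shNT replicate 1, shNT replicate 2, shGLUD1 replicate 1 and shGLUD1 replicate 2. Among all genes, 88% of calls were higher on TPM, 44.4% rescaled and 51.5% quantile normalized. Rescaled calls over all genes numbered 6403 with all 4 libraries, and from 4528 (without shGLUD1 replicate 2) to 5590 with 1 library left out. Rescaled leave-one-out fits that were added after seeing the data leave 1 sample in a group, which, as in the fits on TPM, is assumed to vary like the other group.

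Directions reversed for ZWINT (-0.13 rescaled, and -0.077, -0.18, -0.25 and -0.0049 without each library in that order) and BIRC5 (-0.13 rescaled, and -0.0072, -0.26, -0.17 and -0.092), and for TOP2A rescaled without shNT replicate 2 (-0.019) or shGLUD1 replicate 2 (-0.084). The log2 fold change of GLUD1 was 0.15 without shGLUD1 replicate 1 and -0.37 without shGLUD1 replicate 2, and PMF1 at 0.30 with length and GC trends removed. The cause was not tested. Same-numbered libraries did not deviate together (correlation 0.0393), so the numbers were not taken as pairs. With the replicate block, 8456 genes were called in place of 8078, and 50 of 50 mitotic genes were higher. Depth is unknown, which leaves the counting error of genes near 1 TPM unmeasured.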
